A study of Mus musculus with 3 samples.

Results

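LepR+ stromal cells are the mesenchymal cells of the marrow that carry the leptin receptor and make the chemokine Cxcl12 and stem cell factor (Kitl), with which they hold blood stem cells in place. The cells described here are the LepR+ stromal cells with high RNA of the immediate early genes Fos, Fosb, Jun, Junb and Egr1. They numbered 634 of 2208 LepR+ stromal cells and of 8336 barcodes that passed the quality limits of at least 500 genes, at least 1000 unique molecular identifiers (UMIs, each standing for 1 captured RNA molecule) and at most 10% mitochondrial UMIs. A LepR+ stromal cell had Cxcl12 at 30 or more UMIs per 10000 of the cell, at least 1 Lepr UMI, Alpl plus Wif1 under 5 per 10000, Mmp13 under 10 per 10000, at most 5 hemoglobin UMIs and no Ptprc (CD45) UMI. It was called high when the sum of the 5 immediate early genes reached 20 per 10000, and low when the sum was under 20. Hence the levels of these 5 genes, and any other gene set between high and low cells of the same libraries, are descriptions of cells chosen by measured RNA, and no test was made on them.

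Sorted marrow stromal cells were sequenced by 10x Genomics 3′ single-cell RNA sequencing, from mice of the strain C57BL/6 that were 6 to 8 weeks old. There were 3 libraries, 1 for each genotype: wild type (WT), R76W, a transgenic model that inhibits osteocyte connexin 43 (Cx43, Gja1) gap junctions, and the library labelled D130, read here as the Δ130–136 model that blocks both gap junctions and hemichannels of osteocyte Cx43. The study's title links osteocyte Cx43 hemichannels, through prostaglandin E2, to the fate of these stromal cells. Marrow was drawn by syringe, bone fragments left behind were treated with collagenase, and red cells were lysed. The stain for sorting used antibodies to the endothelial marker CD31, the blood cell markers CD45 and Ter119, and the stromal markers PDGFRα and CD51. The promoter that drives the transgenes and the number of mice behind each library are not given in the sources used here. With 1 library per genotype there was no spread between mice, so nothing was tested between genotypes, and every interval covers counting error only.

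Immediate early genes are transcribed within minutes of a stimulus, without new protein synthesis, from promoters that already carry factors such as CREB and SRF. Fos and Jun family proteins pair to form the AP-1 transcription factor, while early genes such as Zfp36, Dusp1 and Socs3 encode inhibitors that shut the response down again. In tissue that is digested with enzymes before sorting, the same genes are widely known to be induced by the procedure itself, so their RNA in a sorted cell need not be the level in the marrow. Which of these sources the RNA had was not tested.

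The deposited libraries held 3317 to 7352 barcodes with 29558251 to 81837778 UMIs in total, and the kept barcodes had median UMI counts of 9392 to 11909. Pairs of libraries shared 4 to 8 barcodes, 1 in each pair among kept barcodes, and none among high cells. Summed over its 22 genes, which include the gate genes Cxcl12 and Lepr, the LepR+ identity list was at 56105 counts per 1000000 UMIs (CPM) in WT high cells, 51417 in R76W and 55616 in D130, and at 54486 to 60464 CPM in low cells. Of the label's markers, Fosb, Egr1, Fos and Jun had a UMI in at least 91.9% of high cells in every library, but all 4 were used to choose the cells and so check nothing. Ccl2, which the rule did not use, had a UMI in 37 of 211 WT, 43 of 152 R76W and 124 of 271 D130 high cells. Of the markers of other cells, the endothelial list summed to 25.3, 74.2 and 8.17 CPM in WT, R76W and D130 high cells, with 7, 5 and 5 of 11 genes at 0. The lymphoid list summed to 0.723, 0 and 2.04 CPM, with 10, 11 and 7 of 11 genes at 0. The monocyte or macrophage list summed to 71.9 to 86.9 CPM, the neutrophil list to 24.6 to 78.8 CPM and the erythroid list to 78.4 to 252 CPM. The megakaryocyte list summed to 6.51, 6.36 and 44.5 CPM in high cells, against 5.24 in D130 low cells, and a single D130 high cell held 68 of the 81 UMIs of Pf4, a platelet gene. The osteoblast list summed to 11042, 7125 and 5614 CPM in high and to 8270, 8357 and 5870 CPM in low cells. As medians over high cells, the osteoblast list was at 52.3 to 70.1 and the fibroblast list at 9.03 to 10.0 UMIs per 10000, against 506 to 569 for the LepR+ identity list.

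D130 had the largest share of high cells among its LepR+ stroma. They were 211 of 778 LepR+ cells in WT (27.1%, exact Clopper-Pearson 95% interval 24.0 to 30.4), 152 of 661 in R76W (23.0%, 19.8 to 26.4) and 271 of 769 in D130 (35.2%, 31.9 to 38.7). The D130 interval lay above the intervals of WT and R76W, while those of WT and R76W overlapped. LepR+ cells differed in depth, with median UMI counts of 5736 in WT, 7776 in R76W and 8306 in D130. After thinning each cell to 3000 UMIs, which left out 95, 37 and 34 shallower cells, the shares were 30.3% (26.9 to 33.9), 24.5% (21.2 to 28.1) and 38.4% (34.8 to 42.0), in the same order and again with only the D130 interval apart. In cells of 5000 to 15000 UMIs alone the WT share was closer to that of D130, at 169 of 483 (35.0%, 30.7 to 39.4) against 232 of 614 (37.8%, 33.9 to 41.8), with overlapping intervals, while R76W stood at 132 of 503 (26.2%, 22.4 to 30.3).

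The order of the libraries depended on where the sum was divided, and the libraries differed in the shape of the sum as well as in share. No UMI of the 5 genes was found in 42.2% of the WT LepR+ cells, in 49.9% of the R76W and in 26.1% of the D130 ones. Among high cells the median sum was 59.6 UMIs per 10000 in WT (quartiles 34.1 and 111), 96.0 in R76W (46.1 and 179) and 53.1 in D130 (33.7 and 95.2), with maxima of 654, 453 and 246. R76W thus had the fewest high cells but the highest sums within them, and D130 the reverse: 46 R76W cells reached 160 per 10000, against 37 in WT and 21 in D130. At a division of 40 per 10000, which 139 WT, 120 R76W and 178 D130 cells reached, the WT share of 17.9% no longer exceeded the R76W share of 18.2%, and the D130 share of 23.1% (20.2 to 26.3) overlapped both in its interval. The sum ran through the threshold without a gap: 22, 9 and 36 cells lay from 15 to under 20 per 10000 in WT, R76W and D130, and 17, 9 and 27 from 20 to under 25. The cells nearest to the threshold had 20.2, 20.9 and 20.1 per 10000 inside it, and 19.9 in each library outside it. High cells are thus a range of a score set by a threshold, and they are not called a cell type here.

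**Figure D1:**
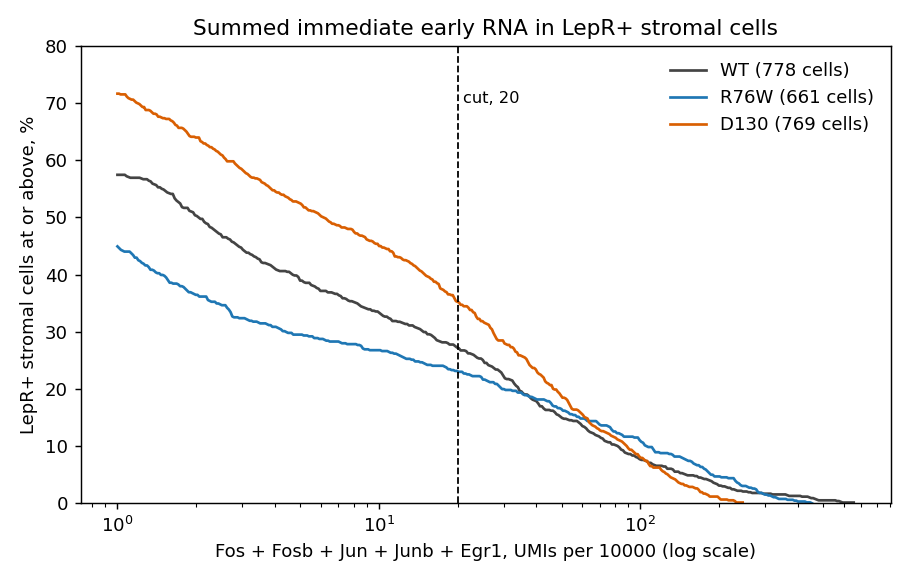
Share of LepR+ stromal cells in percent (vertical axis) whose sum of Fos, Fosb, Jun, Junb and Egr1 is at or above the value on the horizontal log axis, in UMIs per 10000, with 1 line per library. The dashed line is the threshold of 20, where the lines stand at 27.1% (WT), 23.0% (R76W) and 35.2% (D130). D130 is highest up to the threshold, and its line ends first, at 246.

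Other stromal gates held such cells as well. The sum reached 20 per 10000 in 57 of 306 WT (18.6%), 46 of 289 R76W (15.9%) and 30 of 112 D130 (26.8%) cells that passed the same gates but had Mmp13, a collagenase, at 10 per 10000 or more. In cells with Alpl plus Wif1 at 5 per 10000 or more, a gate for bone-forming progenitors, it did so in 76 of 347 WT (21.9%), 58 of 188 R76W (30.9%) and 30 of 203 D130 cells (14.8%). D130 had the highest point value among Mmp13-high cells and the lowest among these progenitors. In LepR+ cells and in these progenitors the genotypes thus stood in opposite order, with the D130 and R76W intervals apart in each, and that difference was not tested. After thinning to 3000 UMIs these progenitors stood at 23.5%, 30.5% (23.5 to 38.1) and 19.5% (14.2 to 25.8), so the R76W and D130 intervals then overlapped. Barcodes with a Ptprc UMI reached the sum in 39.6%, 49.5% and 35.5%. Erythroid barcodes, in which free RNA of the droplets is the background, reached it in 15 of 2066 in WT (0.726%), in 0 of 242 in R76W, which at 3 counts of the total allows up to 1.24% (exact upper limit 1.51%), and in 0 of 437 in D130, which allows up to 0.686% (0.841%). After thinning to 3000 UMIs the erythroid counts were 17 of 1799 (0.945%), 2 of 217 (0.922%) and 0 of 427. Their median UMI counts, 24576.5, 29207.5 and 33322, were above those of the LepR+ cells.

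**Figure D2:**
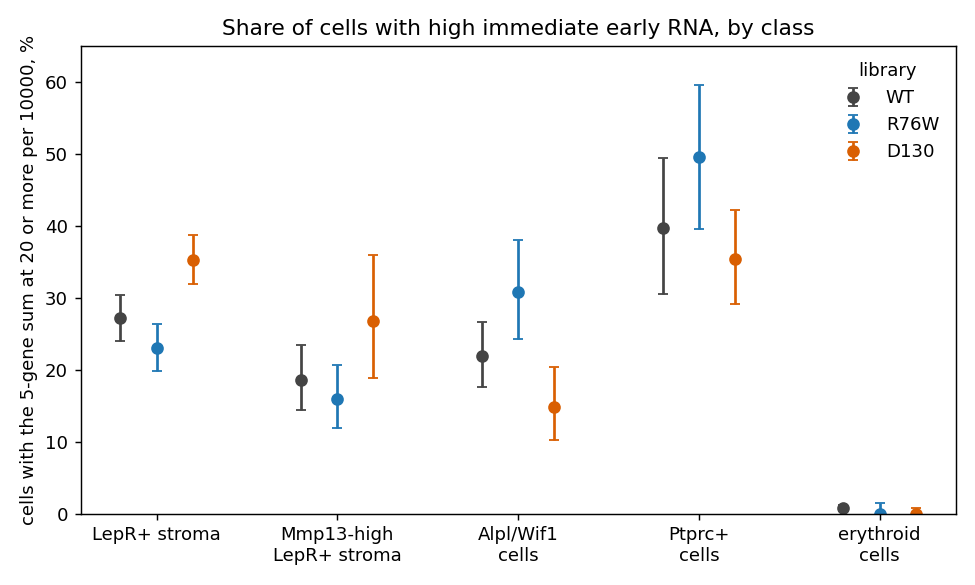
Percent of cells with the 5-gene sum at 20 or more UMIs per 10000 (vertical axis) in 5 classes set by marker gates, with 1 point per library and bars for exact 95% binomial intervals of counting error. LepR+ stroma stands at 27.1%, 23.0% and 35.2% in WT, R76W and D130, and the erythroid barcodes at 0.726% or less.

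The detection of the 5 genes in high cells follows in part from the rule and is given as a description. All 5 had a UMI in 158 of 211 WT (74.9%), 140 of 152 R76W (92.1%) and 232 of 271 D130 cells (85.6%), and a high cell had a median of 36, 77.5 and 44 UMIs of the 5 genes. In WT, Fos had a UMI in 93.8% of high and 9.70% of low cells, and Junb, the most widespread in low cells, in 96.2% and 28.2%. With any 1 of the 5 left out of the sum, 85.2% to 95.4% of the high cells still reached 20 per 10000. Summed over cells, Fos, the AP-1 partner of Jun, stood at 3608, 4199 and 1743 CPM in WT, R76W and D130 high cells and at 35.5, 20.5 and 49.3 CPM in low cells. Egr1, a zinc finger factor, stood at 1577, 1879 and 940 CPM in high and at 42.0, 15.5 and 93.4 CPM in low cells. These CPM leave the UMIs of the 5 genes out of the total, as do those of named genes between high and low cells and over bands of the sum. Sums over marker lists, and the values of Malat1, Pecam1 and the genotypes below, are per all UMIs. D130 was lowest in high cells and highest in low cells for both genes.

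Beyond the 5 genes, the genes higher in high cells held much of the rest of the early program. A gene was called when it differed at least 1.5-fold in the same direction within each of the 3 libraries, on log2 of CPM with 1 added. Of 9996 genes with at least 30 UMIs in every library, 126 were higher in high cells (1.26% of genes measured) and 73 were lower (0.73%), and 46 of the 126 were the 5 genes and members of the early lists. Asking for agreement in 2 libraries gave 304 higher and 364 lower genes without D130, 196 and 216 without WT, and 153 and 170 without R76W. Over the 4 lists of other early genes, 41 of 57 measured were higher and none lower, with a median log2 ratio of 1.45 against −0.10 over all genes measured. These lists were drawn up with results of these libraries known, and the cells were chosen by genes of the same program, so the counts describe the cells and support nothing further.

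Early transcription factors made up 16 of the called genes, of 18 measured, with a median log2 ratio of 1.65. Klf4, a zinc finger factor, stood at 118 against 4.55 CPM in WT, 157 against 0.998 in R76W and 85.1 against 4.05 in D130, high against low cells. Ier2, a nuclear protein of the immediate early class, stood at 362 against 17.6, 383 against 9.48 and 483 against 35.0 CPM. In every library both genes were more than 10 times higher in high cells. Nr4a1, an orphan nuclear receptor induced by cAMP and by stress, was unequal between libraries, at 36.5 against 2.28 CPM in WT, 139 against 1.75 in R76W and 20.6 against 5.72 in D130. Klf2 and Klf6, Cebpb and Cebpd, and the BMP targets Id1, Id2 and Id3 were also higher in all 3 libraries.

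Feedback inhibitors formed the second group, with 15 of 23 higher and a median log2 ratio of 1.45. Zfp36, which binds AU-rich 3′ ends of cytokine and early gene RNA and speeds their decay, stood at 712 against 41.6 CPM in WT, 946 against 32.9 in R76W and 553 against 49.3 in D130. Dusp1, a phosphatase that switches off MAP kinases, stood at 825 against 40.7, 951 against 28.9 and 366 against 26.0 CPM. High cells of D130 were lowest for both, as they were for Fos and Egr1. Btg2, an anti-proliferative protein, stood at 234 against 22.5, 348 against 16.7 and 340 against 29.6 CPM. Nfkbia, which holds NF-kB in the cytoplasm, and Socs3, which restrains cytokine receptors, were higher by less: 384 against 115, 432 against 97.0 and 309 against 149 CPM for Nfkbia, and 544 against 217, 770 against 186 and 628 against 216 CPM for Socs3.

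Of the other AP-1 and ATF genes, 4 of 7 were higher, namely Jund, Atf3, Maff and Atf4. Jund, the most constant of the Jun genes in resting cells, stood at 1887 against 254 CPM in WT, 1892 against 191 in R76W and 1511 against 291 in D130. Atf3, a stress-induced factor, had few UMIs in low cells, with 64 UMIs in high and 1 in low cells of WT, 103 and 1 in R76W, and 53 and 3 in D130. Among early genes for cytoplasmic or secreted proteins, 6 of 10 were higher, led by Ccn1, a matrix protein of the CCN family, at 907 against 75.5, 1193 against 65.4 and 781 against 169 CPM.

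**Figure D3:**
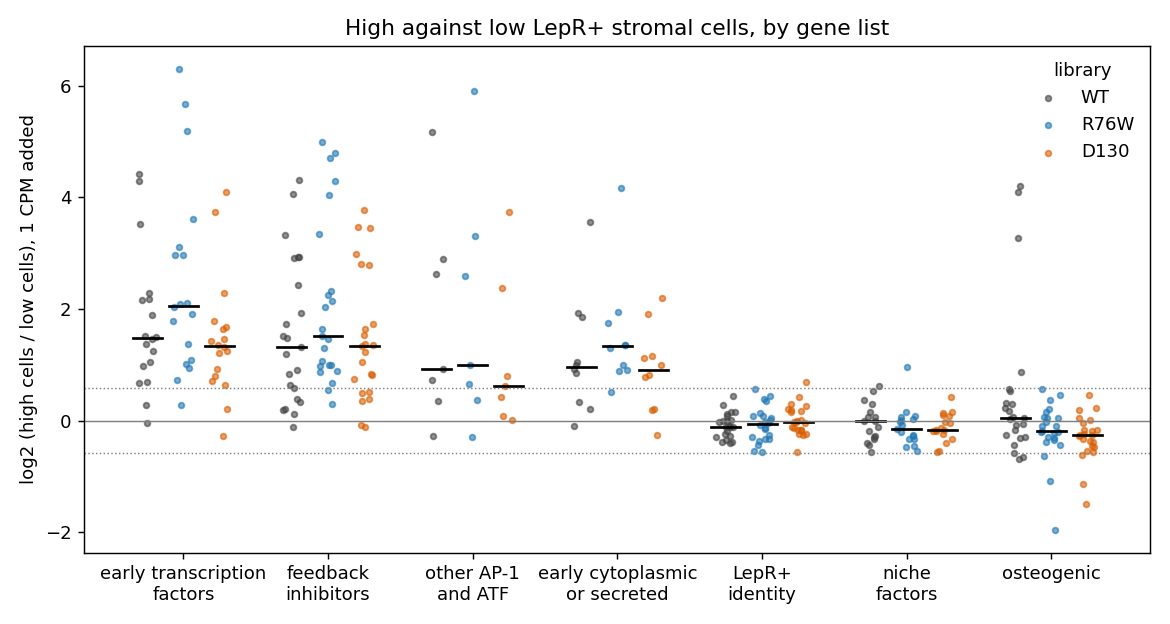
Log2 of CPM in high over low cells (vertical axis, 1 CPM added) for the measured genes of 7 lists, with 1 point per gene and library, black bars for medians and dotted lines at 1.5-fold. Nearly all early genes lie above 0, with list medians from 0.63 to 2.06, while the medians of the LepR+ identity, niche and osteogenic lists lie within 0.27 of 0. The high WT points in the osteogenic list are Bglap, Bglap2 and Col1a1.

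The promoters of 4 of these genes are shown because they carry the short motifs through which early genes are classically described. Each is the 250 bases before the transcription start in RefSeq (build GRCm38.p6), read 5′ to 3′ on the gene's own strand: Fos at chr12:85473640-85473889 (plus strand), Dusp1 at chr17:26508473-26508722 (minus strand), Btg2 at chr1:134079156-134079405 (minus strand) and Cxcl1 at chr5:90890995-90891244 (plus strand). Capitals mark matches to the CREB motif TGACGT or its palindrome TGACGTCA, and in Cxcl1 a match to the NF-kB site.
Fos: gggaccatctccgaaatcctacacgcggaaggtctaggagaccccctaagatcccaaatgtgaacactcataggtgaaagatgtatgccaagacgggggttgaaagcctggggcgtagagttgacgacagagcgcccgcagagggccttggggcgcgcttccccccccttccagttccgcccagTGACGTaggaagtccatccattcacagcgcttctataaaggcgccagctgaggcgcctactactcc
Dusp1: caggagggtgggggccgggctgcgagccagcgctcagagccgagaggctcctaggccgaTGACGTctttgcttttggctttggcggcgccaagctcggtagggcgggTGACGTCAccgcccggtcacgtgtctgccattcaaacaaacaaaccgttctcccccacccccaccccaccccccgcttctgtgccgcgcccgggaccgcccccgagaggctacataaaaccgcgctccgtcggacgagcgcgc
Btg2: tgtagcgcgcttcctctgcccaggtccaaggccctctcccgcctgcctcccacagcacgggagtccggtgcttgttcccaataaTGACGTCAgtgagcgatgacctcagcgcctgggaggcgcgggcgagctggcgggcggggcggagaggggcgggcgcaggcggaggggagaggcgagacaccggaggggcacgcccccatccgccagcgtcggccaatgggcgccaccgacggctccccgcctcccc
Cxcl1: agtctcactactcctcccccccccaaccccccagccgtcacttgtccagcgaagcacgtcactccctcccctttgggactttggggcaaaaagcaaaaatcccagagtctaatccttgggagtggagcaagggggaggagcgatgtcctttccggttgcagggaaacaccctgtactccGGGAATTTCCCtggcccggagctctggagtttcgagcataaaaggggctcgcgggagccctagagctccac
The match in Fos lies 66 to 61 bases before the start. Dusp1 has TGACGT from base 191 and TGACGTCA from base 143 before the start, and Btg2 has TGACGTCA from base 166. In Cxcl1, overlapping NF-kB matches span bases 71 to 61, and a TGACGT on the opposite strand is left in lower case, as is an NF-kB match in Fos.

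Both strands were searched for TGACGT, for TGACGTCA, which contains it, for the AP-1 motif TGANTCA, for the CArG box bound by SRF and for the NF-kB site. Of the 126 higher genes, 100 had a promoter in the table. TGACGT was in 18 of these (18%), against 991 of 7951 measured genes with a promoter (12.5%) and 6.47% of all 32851 promoter windows. TGACGTCA was in 6 (6%), against 3.23% of measured genes. The NF-kB site was in 11 (11%), against 5.38%, the AP-1 motif in 3, against 4.84%, and the CArG box in 2, against 1.33%. Among the genes named here, TGACGT was also found for Atf3, Ccn1 and Gm34455, the CArG box for Zfp36, and the NF-kB site for Fosb, Polg2, Ier3 and Nfkbia. None of the 5 motifs was in the windows of Jun, Junb, Jund, Klf4 or Nr4a1. Egr1, Ier2, Ccl2, Nfkbiz and Gm26887 were not matched. A match describes letters in a window and shows no binding.

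Of the highest genes, 3 lay within 10000 bases downstream, on the same strand, of another gene that was higher in high cells. On any side and strand, 13 of the 126 higher genes had another of them within that distance. The share over all genes measured was not counted. The gene with the highest ratio outside the 5, Gm26802, a long noncoding RNA, stood at 220 against 1.95 CPM in WT, 358 against 2.49 in R76W and 128 against 1.19 in D130. It lies at chr7:19298260-19300770 (GRCm38, minus strand), 1926 bases downstream of Fosb at chr7:19302696-19310051 on the same strand. Gm34455 (chr17:26467560-26503200, minus strand), at 64.3 against 3.58, 47.9 against 2.99 and 43.6 against 2.62 CPM, lies 2390 bases downstream of Dusp1 on the same strand. Polg2, the accessory subunit of the mitochondrial DNA polymerase, at 141 against 11.7, 183 against 13.2 and 142 against 10.7 CPM, lies 818 bases downstream of the RNA helicase gene Ddx5 on the same strand and overlaps Milr1 on the other. Whether reads were counted by strand, and whether UMIs in a downstream gene came from transcripts of the gene before it, was not tested.

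Further downstream of Fosb the libraries parted for some genes. Ppm1n, a phosphatase gene 22632 bases away on the same strand, had 39 UMIs in high and 1 in low cells of WT, 132 and 0 in R76W, and 3 and 0 in D130. Rtn2, a reticulon gene 6536 bases away on the opposite strand, stood at 22.6 against 7.81 CPM in WT, 62.9 against 9.73 in R76W and 9.05 against 7.87 in D130. Opa3, 46153 bases away on the opposite strand, stood at 19.7 against 13.3, 73.0 against 17.0 and 20.6 against 17.9 CPM. R76W high cells were highest for each, and D130 high cells were near their own low cells for Rtn2 and Opa3. Vasp, 30879 bases away on the same strand, was higher in high cells of both WT and R76W. It stood at 62.8 against 36.1, 89.4 against 46.9 and 59.6 against 50.3 CPM. On the other side of Fosb, Ercc1 stood at 36.5 against 25.7, 29.3 against 21.2 and 22.2 against 21.2 CPM, with no such step in R76W. Cd3eap, further on that side, stood at 12.4 against 6.18, 5.72 against 7.73 and 11.9 against 6.91 CPM.

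In the stress and inflammatory lists, between 1 and 6 genes each were higher and none lower, where 1.26% of all genes measured were higher. Of 11 heat shock and chaperone genes 3 were higher (Hspb1, Dnaja1 and Dnajb1), of 17 unfolded protein response genes 1 (Atf4), of 18 oxidative stress genes 3 (Gpx1, Sqstm1 and Mt1), and of 14 glucocorticoid-induced and metallothionein genes 5 (Per1, Sgk1, Mt1, Cebpd and Dusp1). The co-chaperone Dnajb1 stood at 213 against 23.1 CPM in WT, 279 against 22.5 in R76W and 130 against 36.7 in D130. Of 17 NF-kB outputs 6 were higher, namely Nfkbia, Nfkbiz, Ccl2, Cxcl1, Icam1 and Irf1, and of 13 inflammatory chemokine and cytokine genes 3, which are among these 6. Cxcl1, a neutrophil chemokine, had 46 UMIs in high and 1 in low cells of WT, 36 and 0 in R76W, and 99 and 39 in D130. A single WT high cell held 27 of the 46 UMIs, and a single R76W one 11 of the 36. Ccl2, a monocyte chemokine, stood at 91.3 against 41.6, 80.1 against 25.7 and 759 against 388 CPM, so that D130 low cells exceeded the high cells of both other libraries.

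Of the stromal lists, 7 held no called gene, where 1.26% of all genes were higher and 0.73% lower. None of the 22 LepR+ identity genes, 17 niche factors, 23 osteogenic, 30 extracellular matrix, 15 Wnt, 9 prostaglandin E2 or 27 interferon genes measured was called in either direction. Of 20 adipogenic genes 2 were higher, Cebpb and Cebpd, and of 24 TGF-beta and BMP genes 4, among them Id1, Id2 and Id3. Cxcl12 stood at 17100.3 against 18584 CPM in WT, 15834 against 16083 in R76W and 17378 against 17670 in D130. Kitl stood at 2606 against 2602, 2458 against 2715 and 2816 against 3152 CPM. Lepr, whose detection was part of the gate, was somewhat lower in high cells of WT and R76W, at 1829 against 2393 and 1990 against 2704 CPM, and level in D130, at 1635 against 1658. Pparg, the master regulator of fat cells, stood at 206 against 310, 172 against 209 and 343 against 469 CPM, and Runx2, that of osteoblasts, at 1674 against 2063, 1646 against 2557 and 1371 against 1722 CPM. Both were lower in high cells of every library without reaching 1.5-fold in all 3.

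The lowest ratios belonged to weakly expressed genes, and none of the 73 lower genes was in a list. After thinning to 3000 UMIs, which left 7552 genes measured, 13 of the 73 were called again. Dnm3os, the host RNA of a group of microRNAs, stood at 21.2 against 70.9 CPM in WT, 22.9 against 78.1 in R76W and 35.0 against 78.4 in D130. Igf2, a growth factor gene, stood at 5.11 against 13.3, 2.86 against 15.5 and 9.05 against 21.0 CPM, and Mterf1a, a mitochondrial transcription factor gene, at 3.65 against 14.3, 3.58 against 10.98 and 3.70 against 11.7 CPM. The other 9 genes with the lowest ratios were Gm28403, Slc15a5, Gm46218, Ccdc3, 1700012D14Rik, Zfp808, Fut10, Gm26917 and Gm16638.

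Depth and RNA makeup moved with the choice of cells. High cells had median UMI counts of 6425 against 5299 in WT, 9167.5 against 7363 in R76W and 8671 against 8127.5 in D130, and median mitochondrial shares of 1.69% against 2.03%, 2.02% against 2.27% and 2.28% against 2.44%. Malat1, a nuclear noncoding RNA, stood at 30866 against 18411 CPM, 29205 against 15382 and 32561 against 23858. Ribosomal protein genes took 5.44% against 3.77%, 4.94% against 3.33% and 4.86% against 3.84% of UMIs, and none of the 83 reached 1.5-fold in all 3 libraries. Ratios also followed gene length: with genes in 5 equal classes of length, the median log2 ratio of the shortest class was 0.29, 0.34 and 0.20 in WT, R76W and D130, and that of the longest class −0.31, −0.32 and −0.23. The part of depth, nuclear RNA and length in the lists above was not tested.

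Over 6 bands of the 5-gene sum, Zfp36 and Jund were higher in each band than in the one below it in all 3 libraries. Zfp36 stood in WT at 28.1 CPM where the sum was 0, 57.1 below 20, 185 from 20 to 40, 355 from 40 to 80, 714 from 80 to 160 and 2330 above, and it ended at 2292 CPM in R76W and 1932 in D130. Klf4 dipped in WT, from 8.35 CPM below 20 to 4.505 from 20 to 40, and then stood at 54.2, 165 and 388 CPM. Mt1, a metallothionein, stepped up at the top of the range: from 182.9 CPM in the 80 to 160 band to 640.2 above it in WT, and from 276.8 in the 40 to 80 band to 1043 and 1370 in D130. Ccl2 in D130 was at 127 CPM where the sum was 0 and at 544 already below 20, then at 629, 674, 1032 and 941, while WT did not pass 115 and R76W not 118 in any band. Nr4a1 reached 289 CPM in the top band of R76W, 85.4 in WT and 63.1 in D130, but was at 0 from 20 to 40 in WT and in D130 stood at 7.61 below 20 and at 3.45 from 40 to 80. Lepr went from 2498 CPM where the sum was 0 to 1754 in the top band of WT, and from 2821 to 1989 in R76W, while D130 ranged from 1477 to 1954. Cxcl12 ranged only from 16082 to 19247 CPM over the bands of WT, from 15390 to 16437 in R76W and from 15705 to 18392 in D130.

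**Figure D4:**
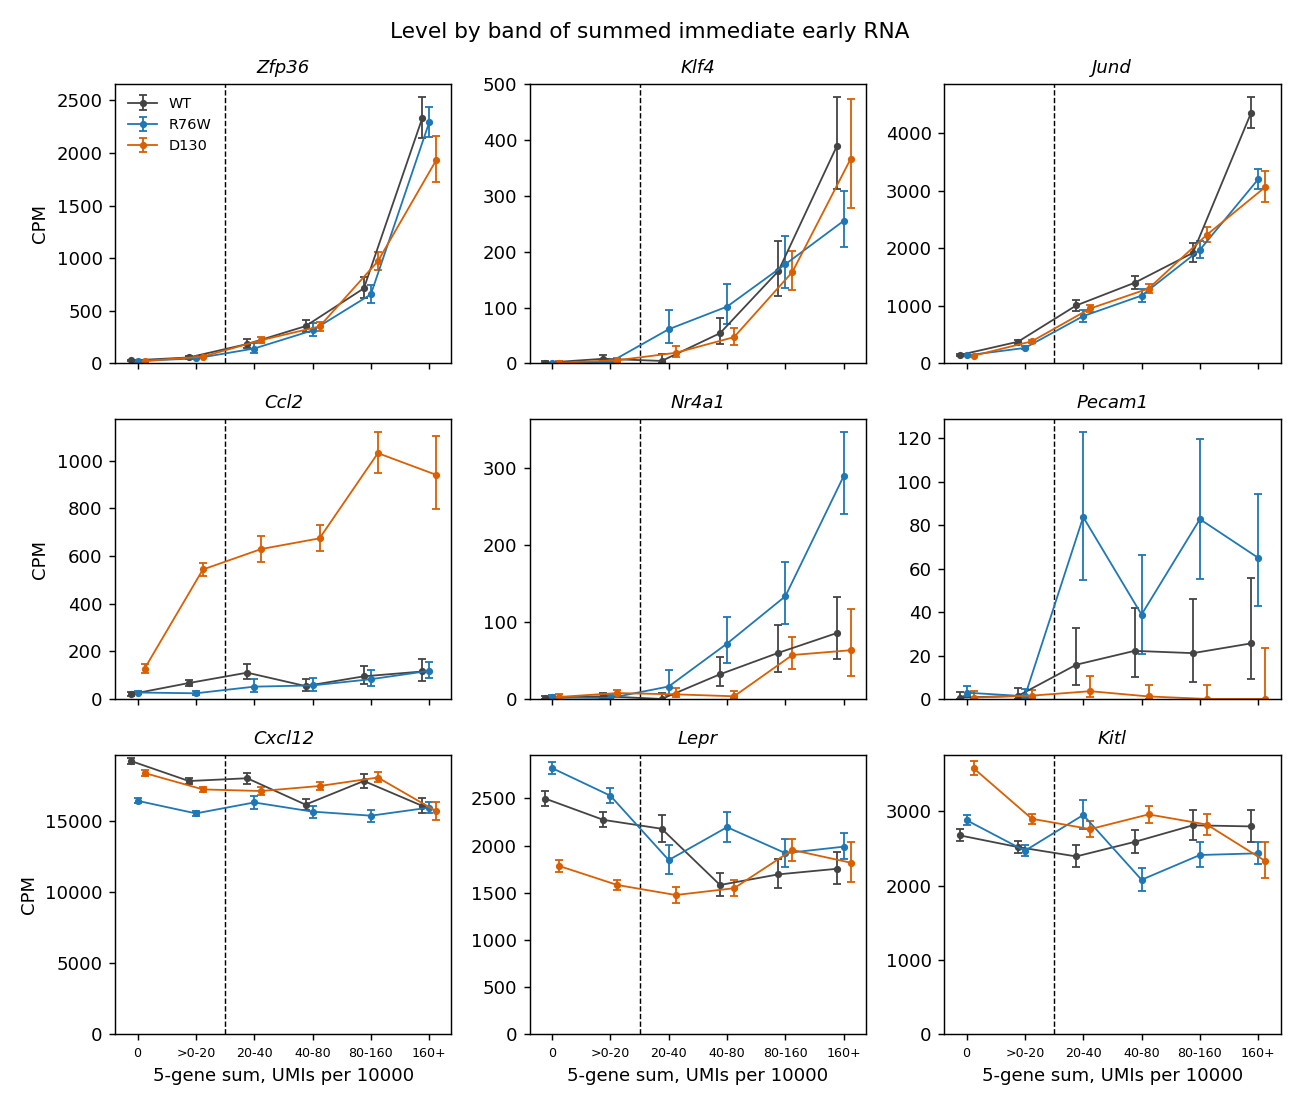
CPM of 9 genes (vertical axes from 0) in LepR+ stromal cells grouped by the 5-gene sum in UMIs per 10000 (horizontal axis), with 1 line per library, bars for exact Poisson 95% intervals and the threshold of 20 as a dashed line. Zfp36 and Jund climb at every step in all 3 libraries, Klf4 dips once in WT, and Ccl2 is highest in D130. Nr4a1 and Pecam1 are highest in R76W in the bands from the threshold up, but not from above 0 to 20. Cxcl12, Lepr and Kitl show no climb.

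Pecam1, the gene of CD31, a surface protein of the stain used before sorting, was higher in high than in low cells of WT and R76W. Low cells held it at 0.976, 2.24 and 1.19 CPM in WT, R76W and D130, so D130 differed little. In R76W the level did not climb steadily with the sum. It was 83.8 CPM from 20 to 40, from 26 UMIs in 2 cells, and 38.9 from 40 to 80. A single R76W high cell held 25 of the 94 UMIs, and the top 3 held 54.3%. Summed over high cells, Pecam1 stood at 20.2 CPM in WT, 66.4 in R76W and 1.63 in D130, from 28, 94 and 4 UMIs in 15, 19 and 4 cells. Of these cells 0, 2 and 1 had a UMI of any other endothelial marker. Their median sum of the 5 genes was 83.4 per 10000 in WT and 149 in R76W, above the medians of 59.6 and 96.0 of all high cells, and 28.5 in D130, below its 53.1. Kit, the receptor of stem cell factor, had UMIs in 12, 26 and 19 high cells, and 3, 2 and 1 cells had both genes.

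Genotypes were then set side by side within the high cells, in CPM of all their UMIs. A gene was called when it differed at least 1.5-fold with Poisson 95% intervals that did not overlap, among 10422 genes with at least 30 UMIs. R76W had 332 genes higher (3.19%) and 261 lower (2.50%) than WT, D130 had 367 higher (3.52%) and 298 lower (2.86%) than WT, and D130 had 353 higher (3.39%) and 327 lower (3.14%) than R76W. The comparisons of R76W and D130 with WT share the WT library. Differences between mice and between sorting or library runs cannot be told apart from genotype. Intervals of summed counts treat UMIs of 1 cell as independent and are too narrow for genes carried by few cells. A summed level also cannot tell more cells with a gene from more RNA in each. Cell counts are given for some of the genes described, and for the others these cannot be told apart.

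The rule genes are given as a description, since the sums that define the cells already had the order R76W, WT, D130 in their medians. Fos stood at 3571 CPM in WT, 4146 in R76W and 1731 in D130, Fosb at 1526, 2177 and 1212, and Egr1 at 1561, 1856 and 934. Among 67 measured genes of the 4 other early lists, 18 were higher and 1 lower in R76W than in WT, 9 higher and 8 lower in D130 than in WT, and 2 higher and 22 lower in D130 than in R76W. The median log2 ratios were 0.41, 0.07 and −0.34, against −0.03, 0.03 and 0.05 over all genes measured. From 2.50% to 3.52% of all 10422 genes measured in high cells were called in each direction of each pair. In low cells the order of R76W and D130 was turned, and 20 of 57 such genes were higher and 4 lower in D130 than in R76W, where 3.28% and 3.33% of all 11875 genes measured were called. Low cells had 5 of 57 higher and 8 lower in R76W than in WT, where 1.98% and 3.55% of all genes were called, and 10 higher and 6 lower in D130 than in WT, where 2.73% and 2.59% were.

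The same ratios were taken with only high cells of 20 to under 80 per 10000, a choice made after seeing the data, which narrows the rule genes by its own construction. The D130 over R76W ratios of Junb and Egr1 turned there, to log2 values of 0.22 and 0.045. Dusp1, at 816, 939 and 364 CPM in WT, R76W and D130, kept a log2 ratio of −1.09 for D130 over R76W in these cells. Nr4a1, at 36.2, 137 and 20.4 CPM with UMIs in 20, 59 and 34 cells, had log2 ratios there of −3.02 for D130 over R76W and 1.497 for R76W over WT. Gem, a small GTPase gene, stood at 5.78, 26.8 and 21.2 CPM, and Errfi1, an inhibitor of the EGF receptor, at 617, 1349 and 1446 CPM, so these early genes were lowest in WT. The next counts are over all high cells, whose median sums already had the order R76W, WT, D130. Of 14 measured cAMP and CREB targets, 5 were higher and none lower in R76W than in WT. In D130, 3 were higher and 2 lower than in WT, and 7 were lower and none higher than in R76W. Over all 10422 genes measured, 2.50% to 3.52% were called in each direction of each pair. Low cells had 4 of 12 such targets higher and none lower in D130 than in R76W. There 1 was higher and 1 lower in R76W than in WT, and 2 higher and 1 lower in D130 than in WT. Of all 11875 genes measured in low cells, 1.98% to 3.55% were called.

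Ccl2 set D130 apart in high and in low cells. High cells held it at 90.4 CPM in WT (95% interval 75.2 to 108), 79.1 in R76W (65.1 to 95.2) and 754 in D130 (720 to 789), which was 8.26 times the WT and 9.42 times the R76W level. WT and R76W overlapped and D130 stood far above both. After thinning to 3000 UMIs, Ccl2 had a UMI in 11.3% of WT, 16.1% of R76W and 36.4% of D130 high cells, against 17.5%, 28.3% and 45.8% unthinned. In erythroid barcodes the unthinned shares were 0.629%, 0.826% and 2.06%. No single cell carried it, since the cell with the most held 7.32% of the D130 UMIs, and over all alternatives the log2 ratio of D130 over WT lay between 2.92 and 3.36. The difference was not particular to high cells: low cells stood at 41.6, 25.7 and 388 CPM, a log2 ratio of 3.19 for D130 over WT. Ccl7, a neighbouring chemokine gene of the same family, stood at 29.6, 10.6 and 67.0 CPM in high cells, and Cxcl1 at 33.3, 25.4 and 40.4 CPM. Without the cell with the most Cxcl1 in each library, these Cxcl1 levels were 13.8, 17.8 and 34.8 CPM.

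Of 15 measured inflammatory chemokine and cytokine genes, 5 were higher and 1 lower in D130 than in WT, and 8 higher and 2 lower in D130 than in R76W. Of 27 interferon genes, 6 were higher in D130 than in WT and 10 higher than in R76W, with none lower in either. Among all genes measured, 3.52% were higher and 2.86% lower in D130 than in WT. Against R76W these shares were 3.39% and 3.14%. Low cells had 3 of 30 interferon genes higher in D130 than in WT and 13 higher than in R76W, with none lower. Of 14 inflammatory genes there, 5 were higher and none lower than in WT, and 6 higher and 1 lower than in R76W. Of all genes measured in low cells, 2.73% and 2.59% were called against WT, and 3.28% and 3.33% against R76W. Isg15, a ubiquitin-like interferon product, stood at 114, 68.5 and 179 CPM in WT, R76W and D130 high cells. Cxcl9 and Cxcl10, chemokines of the interferon response, were at 245, 31.8 and 464 CPM and at 5.78, 14.1 and 189 CPM, but they came from few cells. In 8 of 271 D130 high cells they made up 50 or more UMIs per 10000, and these cells held 82.9% of the D130 UMIs of both. A single D130 cell held 237 of 463 Cxcl10 UMIs, and without it the D130 level was 92.6 CPM.

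**Figure D5:**
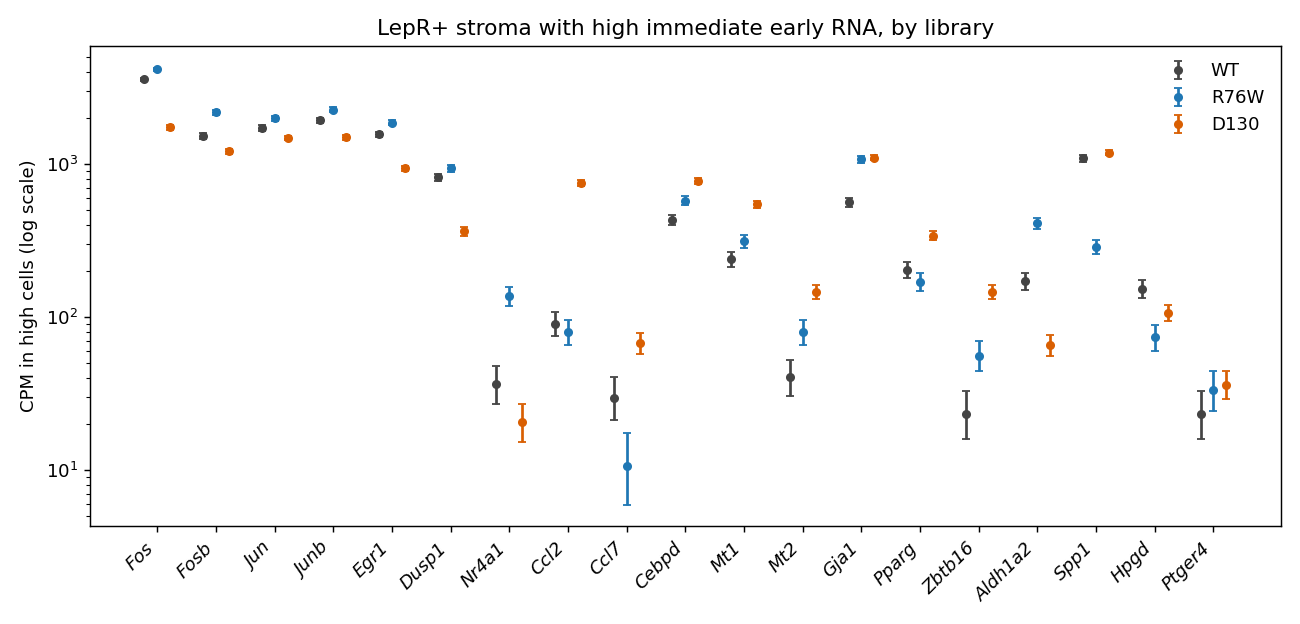
CPM (vertical log axis) of 19 genes in the high cells of each library, with bars for exact Poisson 95% intervals. The 5 rule genes at the left are highest in R76W and lowest in D130, Ccl2 stands at 754 CPM in D130 against 90.4 and 79.1, and Gja1 is higher in R76W and D130 than in WT.

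Of 14 measured metallothionein and glucocorticoid-induced genes, 6 were higher and 1 lower in D130 than in WT. In R76W, 4 were higher and none lower than in WT, and 4 were higher and 4 lower in D130 than in R76W. The share called over all genes measured was 2.50% to 3.52% in each direction of each pair. Low cells had 5 of 15 such genes higher and 1 lower in D130 than in WT. There 3 were higher and none lower in R76W than in WT, and 3 higher and 1 lower in D130 than in R76W. In low cells 1.98% to 3.55% of all genes measured were called. High cells held Mt1 at 238, 312 and 545 CPM in WT, R76W and D130, Mt2 at 40.5, 79.8 and 145, and Cebpd at 430, 574 and 778. Zbtb16, a zinc finger factor induced by glucocorticoids, stood at 23.1, 55.8 and 145 CPM with UMIs in 24, 56 and 165 high cells. All 4 genes had the order WT, R76W, D130. Low cells held Zbtb16 at 32.2 CPM in WT against 185 in D130, so its difference was there too.

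Gja1, the gene of Cx43 itself, stood at 561 CPM in WT, 1072 in R76W and 1100.0 in D130 high cells, with UMIs in 183, 149 and 260 cells. R76W and D130 were both above WT, by 0.93 and 0.97 on the log2 scale, and their own intervals overlapped. Low cells had the same order, at 771, 1170 and 1216 CPM. The models act on osteocyte Cx43 and the labels do not say which cells carry the transgenes. Counts at the 3′ end cannot separate a transgene's RNA from the endogenous one unless their ends differ, and this was not tested. Of 9 measured prostaglandin E2 genes, 1 was higher and 1 lower in R76W than in WT. In D130, none was higher and 1 lower than in WT, and 1 was higher and 1 lower than in R76W. Of all genes measured, 2.50% to 3.52% were called in each direction of each pair. Hpgd, which breaks prostaglandin E2 down, stood at 152, 73.5 and 106 CPM, and the receptor Ptger4 at 23.1, 33.2 and 36.0 CPM.

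Genes of fat and bone differed unequally. Among all genes measured, 3.52% were higher and 2.86% lower in D130 than in WT. In R76W against WT these shares were 3.19% and 2.50%. Of 22 measured adipogenic genes, 5 were higher in D130 than in WT (Pparg, Cebpd, Fabp4, Plin1 and Fabp5) and none lower. None was called between R76W and WT. Low cells had 4 of 24 higher and 1 lower in D130 than in WT, and 2 higher and 3 lower in R76W than in WT. In low cells 1.98% to 3.55% of all genes measured were called in each direction of each pair. High cells held Pparg at 204, 170 and 340 CPM in WT, R76W and D130, with UMIs in 127, 92 and 206 of them. Fabp4 and Fabp5, fatty acid carriers, rested on 1 D130 cell that held 120 of 195 and 1 that held 78 of 117 UMIs. Of 23 osteogenic genes, 6 were lower and 1 higher in R76W than in WT, and 8 lower and 1 higher in D130 than in WT. The largest of these differences came from a single WT cell: it held 1378 of 1479 Bglap, 562 of 600 Bglap2 and 2570 of 2751 Col1a1 UMIs. Bglap (osteocalcin) stood at 1069, 16.2 and 18.8 CPM, and without that cell WT was at 75.4. Col1a1, the main bone collagen, stood at 1989, 241 and 193 CPM, and without that cell WT was at 135, below both others. The counts of osteogenic genes were not taken without that cell. Bglap and Bglap2 are near-identical copies whose UMIs may be split between them.

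Other genes with the largest calls were not all spread over many cells. A single WT cell held 81 of 142 Col11a1 UMIs, and without it WT was at 45.5 CPM. Single D130 cells held 25 of 70 Ccl17 and 16 of 62 Ankef1 UMIs. In each library the top 3 high cells held 42.4% to 44.5% of Kit UMIs. Spp1, the matrix protein osteopontin, stood at 1092, 287 and 1186 CPM in WT, R76W and D130 with UMIs in 129, 69 and 210 high cells, and was lowest in R76W in low cells too, at 763, 334 and 1361 CPM. Aldh1a2, which makes retinoic acid, stood at 171, 408 and 65.4 CPM and was highest in R76W. Nr1d1, a repressor of the circadian clock, stood at 40.5, 61.5 and 8.17 CPM, Ptn, a secreted growth factor, at 46.3, 77.7 and 9.39, Gadd45a, a stress gene, at 68.0, 57.9 and 13.9, and A2m, a protease inhibitor, at 36.1, 26.8 and 4.90. D130 was lowest for these 4, and it was below WT for them in low cells too. Low cells of D130 and WT held Nr1d1 at 6.19 and 16.3 CPM and Ptn at 10.5 and 63.7. Gadd45a stood there at 15.2 and 63.1 CPM, and A2m at 9.77 and 47.2. In D130 high cells A2m rested on 7 cells, and Nr1d1 and Ptn on 16 each. Kit stood at 21.7, 98.2 and 59.6 CPM in high cells, and at 33.8 in WT and 31.7 in R76W low cells, and whether the ratios of high and low cells differ was not tested. In D130 low cells Kit was at 42.7 CPM where the 5-gene sum was 0 and at 78.8 in the band below 20, with the 5 genes left out of the total. Other genes with the highest ratios were G530011O06Rik, Lsmem1, Fam118a, Sipa1l1 and Nup210l in R76W over WT, Ankef1, Ccl17, Pde3b, Epha3 and Dynlt1b in D130 over WT, and Ankef1 and Gm17268 in D130 over R76W. The other genes with the lowest were Rerg, Sp140, Robo2 and Fam161a in R76W against WT, Col11a1 in D130 against WT, and Ppm1n, Lsmem1, Nav2 and Rtn2 in D130 against R76W.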

How the data were processed

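The authors deposited 1 filtered matrix per library of UMI counts per gene and barcode, made with Cell Ranger 7.0.1 per the file headers; the submitters' processing notes also name Seurat and mm10. Counting by strand or of introns is not given in the sources used here. No deposited barcode had under 500 UMIs. The 38 symbols with more than 1 gene ID were summed. Samples were grouped by the genotype label, 1 library each. Counts were summed over high and over low cells of each library, scaled to CPM, and compared as log2 ratios with 1 CPM added, for genes with at least 30 UMIs. Intervals are exact Poisson for counts and Clopper-Pearson for shares, at 95%. A gene whose 3 libraries differ between high and low cells was described, not tested, since the cells were chosen by measured RNA. The members and gene lists were chosen with earlier results of these data known.

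The text names, for high against low cells, the 12 highest genes by their smallest ratio over libraries and the 12 lowest by their largest, without the 5 rule genes and the gate genes. For each pair of genotypes it names the 8 highest and 8 lowest called genes with at least 50 UMIs, UMIs in at least 20 cells and 20 CPM in a library, without mitochondrial, ribosomal, hemoglobin, immunoglobulin, sex-linked, blood and endothelial genes. Some genes that the rule names are not reported here. It also names members of the lists as examples, and Pecam1 and the genes near Fosb were chosen after their values were seen. Doublets were kept, and removing them with Scrublet (scanpy 1.11.5) was an alternative: it called 15 R76W and 32 D130 barcodes, and as it called none in WT the 153 highest scores there were taken. Other alternatives were other thresholds for the sum, depth, mitochondrial and hemoglobin limits, Lepr at 2 UMIs, thinning, other totals, pseudocounts and gene minimums, per-cell means, a length correction and leaving out each library. Cells rich in osteocalcin or in Cxcl9 and Cxcl10 RNA were left out, and a middle range of the sum was taken, as alternatives chosen after seeing the data. Python 3.11.15, numpy 2.4.6, scipy 1.17.1, pandas 2.3.3 and matplotlib 3.10.9 were used.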

Additional observations from a re-analysis of the deposited data

Results flagged for a closer look

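In high against low cells, 14 of 9996 genes measured were at least 1.5-fold higher in 1 library and at least 1.5-fold lower in another. Both differences also had to have Poisson intervals of high and low cells that did not overlap. The calls of 126 higher and 73 lower genes did not ask for this, and genes opposite by fold alone were not counted. Of the 14 genes, 4 belonged to the gene lists. None of these differences between libraries was tested. The log2 ratio of high over low cells was 4.11 in WT and −1.07 in R76W for Bglap, 4.21 in WT and −1.95 in R76W for Bglap2, and 3.28 in WT and −1.13 in D130 for Col1a1. The WT values of all 3 genes rest on the single cell that held 93.2% of Bglap, 93.7% of Bglap2 and 93.4% of Col1a1 UMIs of WT high cells. Fabp4, a fatty acid carrier, was lower in high cells of WT (−1.09) and R76W (−1.80) and higher in those of D130 (1.08), where 1 cell held 61.5% of its UMIs.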

How the results depend on the processing

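Depth and 1 library per genotype set the limits: genes under 30 UMIs were not compared, and no value has a spread between mice. With the sum divided at 10 per 10000 the shares of high cells were 33.4% (WT), 26.8% (R76W) and 44.99% (D130), and at 40 they were 17.9%, 18.2% and 23.1%. In cells of 5000 to 15000 UMIs the WT share was 35.0%. The count of 73 genes lower in high cells was 131 with the division at 40, 33 with 5 CPM added, 125 with at least 10 UMIs per gene and 34 with at least 100. Its members changed even where the count did not. Thinning to 3000 UMIs gave 68 lower genes, 13 of them among the 73, from 7552 genes measured. With at most 1 hemoglobin UMI 28 of 70 were among the 73, and with per-cell means 41 of 65. Of the 126 higher genes, 82 were called again after thinning. Leaving out a library, which asks for agreement in fewer libraries, gave 153 to 304 higher (304 without D130) and 170 to 364 lower genes (364 without D130), against 126 and 73. Thinning cells to 3000 UMIs, which leaves fewer counts, gave 163 higher and 122 lower genes in R76W over WT, 191 and 142 in D130 over WT, and 149 and 178 in D130 over R76W. With only cells from 20 to under 80, 229 genes were higher in D130 than in R76W, against 353. Removing doublets took out 1 WT high cell and none of R76W or D130. Of the genes called against WT, 220 of 261 lower and 295 of 332 higher in R76W were then called again. For D130 these were 264 of 298 lower and 327 of 367 higher. Directions turned for Col1a1, whose log2 ratios of R76W and D130 over WT were 0.83 and 0.51 without doublets, 1.08 and 0.68 with at most 1 hemoglobin UMI, and 0.85 and 0.53 without osteocalcin-rich cells, which left out 2 WT high cells. Without the single rich WT cell alone the WT level of Col1a1 was 135 CPM, below both others. They also turned for Fabp4 in D130 over R76W, −0.024 with the division at 40, where the cause was not tested, and for Junb (0.22) and Egr1 (0.045) in D130 over R76W in cells from 20 to under 80. Of 402 values of named genes in high against low cells, 374 kept to the reported value, 28 moved and 0 reversed. Of 1544 values of genotype ratios, 1362 kept, 173 moved and 9 reversed, where only a ratio called in the reported comparison could count as reversed. Ratios that were not called changed sign too, among them Ccl2 in R76W over WT (up to 0.23) and, in cells from 20 to under 80, Jun in D130 over R76W (0.11) and over WT (0.38) and Junb in D130 over WT (0.11). The osteocalcin, Cxcl9 and Cxcl10, and 20 to under 80 alternatives were chosen after seeing the data. No paired analysis was possible because each genotype had 1 library.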

Other observations

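Other genes outside the early lists were higher in high cells of all 3 libraries. Adamts1, a matrix protease, stood at 257 against 71.2 CPM in WT, 442 against 86.1 in R76W and 343 against 109.6 in D130, and Tnfaip6, a hyaluronan-binding protein, at 79.6 against 17.2, 106.6 against 10.98 and 83.9 against 24.8 CPM. Hk2, a hexokinase, stood at 89.1 against 24.4, 243 against 18.0 and 53.9 against 31.5 CPM and was the single gene called of 14 measured glycolysis genes. These genes were picked after their values were seen.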
